A study of Homo sapiens with 6 samples.

Results

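The 32 genes described here cover the making, movement and export of cholesterol: 19 enzymes of its synthesis, 5 genes of the SREBP control system, 3 that move or store sterol in the cell, and 5 of the LXR and export arm. They were chosen by gene symbol, and 29 of them had a probe set that carries their symbol alone, out of 19775 genes tested. FDFT1, CYP51A1 and NR1H2 were not analysed here; CYP51A1 has 2 probe sets, both shared with another symbol. Expression was measured in K562, an established human line from chronic myeloid leukaemia, on 1-colour Affymetrix arrays. Their probe sets are groups of short probes, and some of these sets can match more than 1 transcript. There were 3 arrays of cells given calactin, labelled 0.15 mM, and harvested at 12 h, and 3 of untreated cells of that time point, all from the same line in the same medium. Calactin is a cardenolide, a steroid of milkweeds and related plants that inhibits the sodium pump. The millimolar unit is that of the labels and is high for a cardenolide, so the true dose is uncertain. The labels call the samples of a group biological replicates. No vehicle is named for the untreated cells, so vehicle and calactin cannot be told apart.

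Cholesterol is built from acetyl-CoA by way of mevalonate, farnesyl diphosphate, squalene and lanosterol, the first sterol of the route. The genes of this route are classic targets of SREBP transcription factors, which are made as membrane proteins of the endoplasmic reticulum. SCAP escorts them to the Golgi for cleavage when sterol in the membrane is low, and INSIG proteins hold them back when it is high. LXR receptors act on the other side: oxysterols switch them on, and they induce the ABC transporters that send cholesterol out of the cell.

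Of the 29 measured genes, 15 fell with calactin, 2 rose and 12 were not called (limma, adjusted p under 0.05 over all genes tested). Among all genes tested, 16.5% were called lower and 4.93% higher, so the falls made up 51.7% of the cholesterol genes against 16.5% in the background. The falls of 8 genes, MSMO1, NSDHL, SQLE, INSIG1, LSS, STARD4, INSIG2 and HMGCS1, reached 2-fold, and no rise did, against 4.4% and 0.531% of all genes. Their calls held in all 20 processing alternatives tried. The median log2 change of the cholesterol genes was -0.50, beside -0.06 for all genes. Synthesis enzymes carried most of the falls, with 12 of 17 lower and a median log2 change of -0.69. The SREBP control genes had 2 of 5 lower, both INSIG genes. The LXR and export genes had 0 of 4 lower by limma and 1 higher; at an unadjusted p under 0.05, which 22.4% of all genes passed as lower and 8.43% as higher, 1 was lower and 1 higher. Changes are in log2(intensity + 16), calactin minus untreated, which understates those of dim genes.

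**Figure D1:**
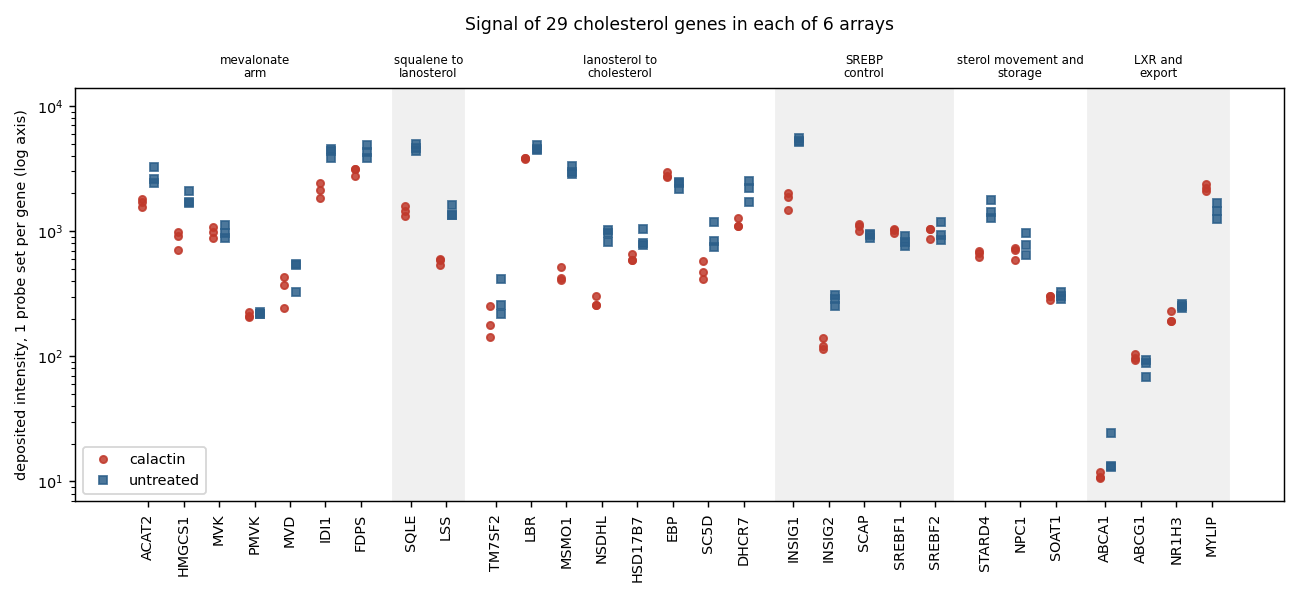
Deposited intensity (log axis) of the 29 measured genes in each array, with 3 calactin arrays as circles and 3 untreated arrays as squares, in groups by role. For MSMO1, SQLE, NSDHL and INSIG1 the calactin points lie far below the untreated ones, while those of PMVK, SREBF2 and SOAT1 overlap.

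Signals of the arrays differed in several ways beside the treatment. Median signals were 31.12 to 31.97 units in the calactin arrays and 33.04 to 34.33 units in the untreated arrays, and log2 signals correlated at 0.985 to 0.988 within a group and 0.971 to 0.978 between groups. The probe set for the middle of 28S ribosomal RNA read 7119 to 13172 units with calactin and 529 to 1051 units in untreated arrays, and its part in the results was not tested. The poly-A spike dap read 496 units in calactin replicate 3 and 645 units in untreated replicate 3, and the lowest of the other 4 arrays was 5720.4 units. Of 10 marker genes of K562, 9 were measured, all above the median signal of a gene, 73.4 units. With calactin 4 were lower and 1 higher, beside 29.3% lower and 9.1% higher among all genes above the median signal. Among 15 measured markers of T cells, B cells, monocytes and fibroblasts, CD3D was the brightest, at a mean of 2017 units over the 6 arrays. It was called lower, at -0.45 on the log2 scale. Of the 5 T cell markers, only CD3D lay above the median signal, and CD3E, CD3G, CD2 and CD8A were not called. The fibroblast marker COL1A2 was also called lower, at -0.80, and no other of the 15 was called. Whether cells of these kinds were present was not tested. In RNA from whole cultures, fewer cells of a kind and less RNA per cell cannot be told apart.

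Of the measured genes, 28 lay above the median signal, where calls were more frequent: 29.3% of such genes were called lower and 9.1% higher, against 15 and 2 of these 28. In 17 of the 29 genes all 3 calactin arrays lay below all 3 untreated ones, and in 4 all lay above, shares to be read beside 24.4% and 10.3% of all genes. Among the 28 brighter genes these counts were 16 and 4. They are to be read beside 3878 and 1473 of the 9887 genes above the median signal.

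The proximal promoters of these genes were scanned because many of them moved together. Of the 29, 26 had a promoter in the RefSeq table (GRCh38.p14), read over the 250 bases before the start. SQLE, ACAT2 and ABCG1 had none there and were not scanned. On both strands, 3 motifs were searched: TCACNCCAC, the core of the sterol element bound by SREBP, CCAAT, the box bound by NF-Y, and GGGCGG, the GC box bound by SP1; none of the 3 contains another. The sterol core was found in 1 of 26 promoters, that of SREBF2, or 3.85%. The share was 0.832% of the 15384 genes tested that had a promoter. Exact matches in this window alone were counted, so a gene without one may still have another form of the element or a more distant one. CCAAT stood in 17 promoters, or 65.4%, beside 34.1% of all, and GGGCGG in 23, or 88.5%, beside 56.3%. Of the 13 genes with a promoter that fell, 10 held CCAAT, and of the 13 others 7 did. The stretches below, from genes with falls of at least 2-fold and from EBP and MYLIP, which rose, run 5′ to 3′ on the strand of the gene, with CCAAT or its reverse complement ATTGG in capitals:
MSMO1: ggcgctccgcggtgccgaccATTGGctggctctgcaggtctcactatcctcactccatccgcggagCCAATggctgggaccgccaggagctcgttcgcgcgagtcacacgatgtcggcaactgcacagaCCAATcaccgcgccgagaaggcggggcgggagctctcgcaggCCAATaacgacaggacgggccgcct
NSDHL: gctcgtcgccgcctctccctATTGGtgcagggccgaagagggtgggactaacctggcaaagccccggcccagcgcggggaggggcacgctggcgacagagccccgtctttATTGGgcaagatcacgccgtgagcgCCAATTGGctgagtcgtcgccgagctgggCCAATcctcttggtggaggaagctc
HMGCS1: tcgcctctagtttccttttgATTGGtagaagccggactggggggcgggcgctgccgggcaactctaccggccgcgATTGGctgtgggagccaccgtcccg
LSS: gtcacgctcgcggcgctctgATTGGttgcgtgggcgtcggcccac
INSIG1: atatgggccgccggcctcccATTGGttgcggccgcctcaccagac
STARD4: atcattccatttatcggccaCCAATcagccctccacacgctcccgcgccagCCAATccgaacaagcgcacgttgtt
EBP: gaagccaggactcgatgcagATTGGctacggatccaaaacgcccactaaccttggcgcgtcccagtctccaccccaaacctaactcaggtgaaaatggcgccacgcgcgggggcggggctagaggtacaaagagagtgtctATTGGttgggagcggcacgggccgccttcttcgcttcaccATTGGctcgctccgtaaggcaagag
MYLIP: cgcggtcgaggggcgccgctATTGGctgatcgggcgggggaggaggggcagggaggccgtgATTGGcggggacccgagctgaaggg
MSMO1 (chr4:165327464-165327659, plus strand) and NSDHL (chrX:152830815-152831003, plus strand) had 4 and 5 such boxes. Of the 5 in NSDHL, 2 overlap on opposite strands, within CCAATTGG. The single boxes of INSIG1 (chr7:155297688-155297732, plus strand) and LSS (chr21:46228900-46228944, minus strand) were both ATTGG. The stretches of HMGCS1 (chr5:43313488-43313587, minus strand) and STARD4 (chr5:111512641-111512716, minus strand) held 2 boxes each. EBP (chrX:48521597-48521802, plus strand) and MYLIP (chr6:16128957-16129042, plus strand) held 3 and 2. With CCAAT in 7 of the 13 genes not called lower, the box was not limited to genes that fell. INSIG2, which fell, had no CCAAT in its window. These letters are matches to a sequence, and no binding was measured.

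In the mevalonate arm, 4 of 7 genes fell and 3 were not called, with a median log2 change of -0.52. HMGCS1, the synthase that makes HMG-CoA, had 981, 706 and 914 intensity units in the calactin arrays, against 1699.8, 2079.9 and 1691 units in the untreated arrays. Even the highest HMGCS1 array with calactin was far below the lowest untreated one. The log2 change of HMGCS1 was -1.07 (SE 0.14, adjusted p = 0.000761), and its other, dimmer probe set stood at -0.52 and was not called (adjusted p = 0.516 by limma). IDI1, the isomerase that makes the reactive isoprene unit, had 2118, 1827 and 2446 units with calactin, against 3837, 4388 and 4528 units in untreated cells. The groups of IDI1 did not overlap, and its fall was just short of 2-fold, with a log2 change of -0.998 (SE 0.11, adjusted p = 0.000416). With probe sets free of shared sequence put first, another IDI1 probe set stood at -0.41 and was not called.

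ACAT2, the cytosolic thiolase that joins acetyl-CoA units at the start of the route, had 1559.5, 1709.7 and 1818 units with calactin, against 2428, 3233 and 2611 units in untreated arrays. Its log2 change was -0.69 (SE 0.11, adjusted p = 0.00264), with no overlap of the groups; under scaling to the hybridisation spikes the change of ACAT2 was -0.58 and no longer called, and under poly-A spike scaling it was -0.09. FDPS, which builds farnesyl diphosphate, the branch point to sterols and to prenylated proteins, had 2768, 3165 and 3108 units with calactin, against 3831, 4892 and 4290.2 units in untreated arrays. The highest calactin array of FDPS was below the lowest untreated one. FDPS changed by -0.52 on the log2 scale (SE 0.10, adjusted p = 0.00538), but by 0.08 under poly-A spike scaling, and its call was lost in replicates 1 and 2 alone (adjusted p = 0.0851 by limma) and under hybridisation spike scaling (-0.41).

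The kinases and the decarboxylase between them were not called. MVK, mevalonate kinase, had 1081, 884 and 991 units with calactin, against 1127, 882 and 958 units in untreated arrays, and a log2 change of -0.0026 (95% interval -0.27 to 0.26). The sign of the MVK change depended on a single array, since it was 0.07 without calactin replicate 2 and 0.09 without untreated replicate 1. Averaged over its 4 probe sets, MVK was called lower, at -0.59. PMVK, which adds the next phosphate, had 206, 226 and 211 units with calactin, against 224, 219 and 218 units in untreated arrays. The arrays of PMVK overlapped and its interval was -0.29 to 0.22. MVD, the decarboxylase that yields isopentenyl diphosphate, had 368, 428 and 241 units with calactin, against 544, 533 and 327 units in untreated arrays. Replicate 3 of MVD was the lowest array in both groups, and the log2 change was -0.42 (adjusted p = 0.299 by limma). MVD was called lower once the replicate number was taken as a block (adjusted p = 0.00918 by limma), and its change was -0.19 without calactin replicate 3 and -0.65 without untreated replicate 3.

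Both measured enzymes from squalene to lanosterol fell. SQLE, squalene epoxidase, the oxygen-requiring step that commits squalene to sterols, had 1326, 1601 and 1459 units with calactin, against 4369, 5007 and 4606 units in untreated arrays. The lowest untreated array of SQLE was far above the highest calactin array. Its fall was 3.17-fold (log2 change -1.66, SE 0.09, adjusted p = 3.9e-05). LSS, lanosterol synthase, which folds the epoxide into the sterol rings, had 583, 536 and 604 units with calactin, against 1341, 1609.9 and 1346 units in untreated arrays. Every calactin array of LSS was well below every untreated one, with little spread among them. The fall of LSS was 2.45-fold (log2 change -1.29, SE 0.10, adjusted p = 0.000108).

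From lanosterol to cholesterol, 6 of 8 genes fell, 1 rose and 1 was not called, with a median log2 change of -0.72. MSMO1, a monooxygenase in the removal of methyl groups from the sterol ring, fell most of the 29 genes. It had 406, 426 and 516 units with calactin, against 2873, 2944 and 3296 units in untreated arrays. All calactin arrays of MSMO1 were far below all untreated ones, and each group was close together. Its fall was 6.58-fold (log2 change -2.72, SE 0.11, adjusted p = 3.9e-05), rank 12 among the falls of all genes tested. NSDHL, the dehydrogenase that acts next in that demethylation, had 255, 257 and 306 units with calactin, against 823, 1013 and 964 units in untreated arrays. The groups of NSDHL were well apart, and its fall was 3.29-fold (log2 change -1.72, SE 0.12, adjusted p = 7.82e-05). HSD17B7, the ketoreductase that ends the demethylation, had 591, 653 and 591 units with calactin, against 781, 1044 and 802 units in untreated arrays.

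The HSD17B7 arrays did not overlap, and its log2 change was -0.50 (SE 0.12, adjusted p = 0.0204), though 0.09 under poly-A spike scaling. HSD17B7 was not called without calactin replicate 1 (log2 change -0.47, adjusted p = 0.0731 by limma) or without calactin replicate 3 (-0.47, adjusted p = 0.0793). The HSD17B7 call was also lost under quantile normalization (-0.35), under hybridisation spike scaling (-0.39) and in replicates 1 and 2 alone (adjusted p = 0.141 by limma), and held in 14 of 20 alternatives. Its sole probe set is of a kind that can also match related transcripts. SC5D, the desaturase that makes dehydrocholesterol, had 415, 574 and 469 units with calactin, against 749, 1184 and 837 units in untreated arrays. Untreated replicate 2 of SC5D was the highest array, and the log2 change was -0.89 (SE 0.18, adjusted p = 0.00759). SC5D was not called in replicates 1 and 2 alone, at -0.93 (adjusted p = 0.109 by limma), and its other probe set stood at -0.10. DHCR7, the reductase that turns dehydrocholesterol into cholesterol, had 1106, 1268 and 1103 units with calactin, against 2207, 2497 and 1698 units in untreated arrays. No calactin array of DHCR7 reached the lowest untreated array, and the log2 change was -0.86 (SE 0.14, adjusted p = 0.00229), or -0.26 and not called under poly-A spike scaling.

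LBR and TM7SF2 encode sterol reductases that act on the same double bond, and LBR also binds lamin and heterochromatin at the nuclear envelope. LBR had 3859, 3825 and 3799 units with calactin, against 4559, 4448 and 4885 units in untreated arrays. The calactin arrays of LBR were almost level, all below the untreated ones. LBR fell by 0.27 on the log2 scale (SE 0.06, adjusted p = 0.0127), but stood at 0.32 under poly-A spike scaling, and its call held in 15 of 20 alternatives. It was lost without calactin replicate 3 (-0.27, adjusted p = 0.0503 by limma), in replicates 1 and 2 alone (-0.23), without a variance trend (adjusted p = 0.103 by limma) and under hybridisation spike scaling (-0.16). TM7SF2 had 177, 251 and 144 units with calactin, against 258, 414 and 219 units in untreated arrays. In both groups replicate 2 of TM7SF2 was highest and replicate 3 lowest, and the groups overlapped. The log2 change of TM7SF2 was -0.58 (adjusted p = 0.161 by limma), called lower with the replicate number as a block (adjusted p = 0.00397 by limma), and -0.33 without untreated replicate 2.

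EBP, the isomerase that shifts the double bond of the sterol ring, was the synthesis enzyme that rose. It had 2967, 2777 and 2730.4 units with calactin, against 2467, 2405 and 2184 units in untreated arrays. The lowest calactin array of EBP was above the highest untreated one, and its log2 change was 0.26 (SE 0.07, adjusted p = 0.0351). That call held in 10 of 20 alternatives. EBP was not called without calactin replicate 1 (0.23), 2 (0.28) or 3 (0.29), or without untreated replicate 2 (0.28) or 3 (0.21). With the mean of its 4 probe sets EBP stood at -0.08.

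**Figure D2:**
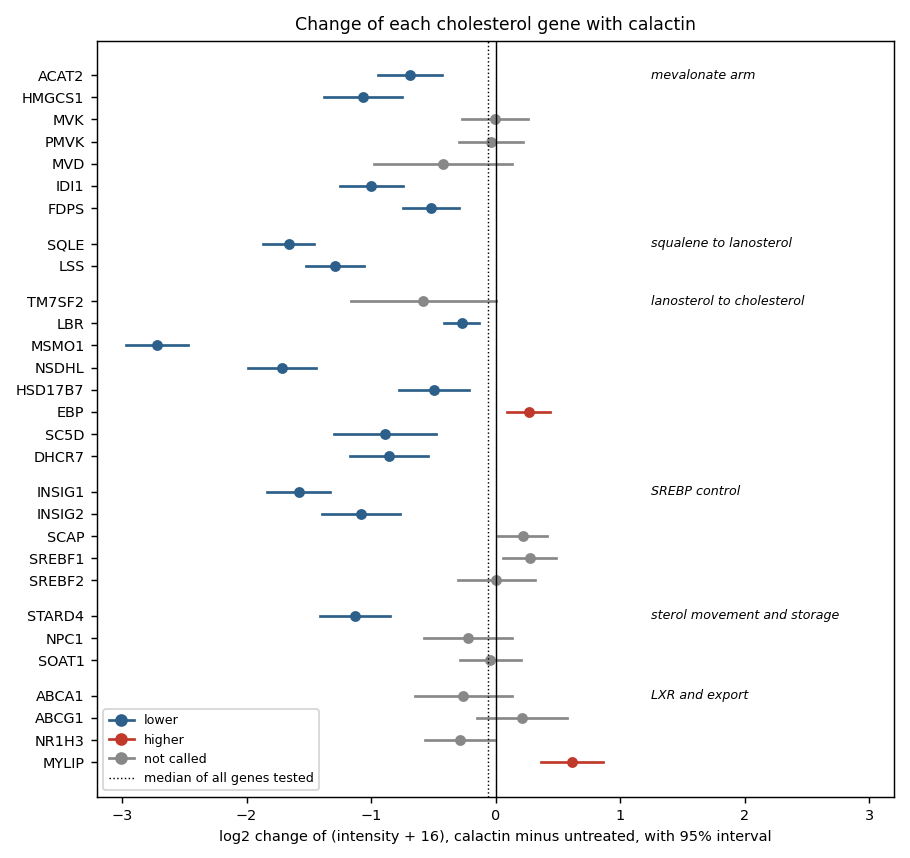
Log2 change of (intensity + 16), calactin minus untreated, with its 95% interval for each of the 29 genes, by role, with n = 3 arrays in each group. The largest falls are those of MSMO1 at -2.72 and NSDHL at -1.72, and the dotted line marks the median of all genes at -0.06.

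In the SREBP control system the INSIG genes fell and no other member was called. INSIG1, itself a classic SREBP target, had 1860.0, 1476 and 2029 units with calactin, against 5173, 5282 and 5557 units in untreated arrays. No calactin array of INSIG1 came near the untreated arrays, which were close together. Its fall was 2.99-fold (log2 change -1.58, SE 0.11, adjusted p = 7.82e-05). INSIG2, which does the same work, had 114, 141 and 121 units with calactin, against 253, 288 and 308 units in untreated arrays. The groups of INSIG2 were apart, and its fall was 2.12-fold (log2 change -1.08, SE 0.14, adjusted p = 0.000711).

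SREBF2, the factor with most weight on cholesterol genes, had 1032, 1043 and 868 units with calactin, against 928, 1186 and 844 units in untreated arrays. Its groups overlapped fully, and the log2 change was 0.0025 (95% interval -0.31 to 0.31), between -0.10 and 0.14 when single arrays were left out. SREBF1, which leans to fatty acid genes, had 967, 1037 and 1015 units with calactin, against 823, 917 and 759 units in untreated arrays. All calactin arrays of SREBF1 were above all untreated ones, with a log2 change of 0.27 (95% interval 0.06 to 0.49, adjusted p = 0.0766 by limma). SREBF1 was called higher with the replicate number as a block (adjusted p = 0.0295 by limma), without untreated replicate 2 (0.34), under median centring (0.33) and under quantile normalization (0.42). SCAP, the escort, had 995, 1136 and 1093 units with calactin, against 936, 942 and 889 units in untreated arrays. The SCAP arrays did not overlap either, at a log2 change of 0.21 (95% interval 0.02 to 0.41, adjusted p = 0.119 by limma), and SCAP was called higher under quantile normalization (0.36). These are levels of mRNA, and cleavage of the SREBP proteins was not measured.

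STARD4, a soluble carrier that moves cholesterol between membranes, had 673, 626 and 693 units with calactin, against 1274, 1771 and 1413 units in untreated arrays. The STARD4 groups were apart, with untreated replicate 2 the highest array. The fall of STARD4 was 2.19-fold (log2 change -1.13, SE 0.12, adjusted p = 0.000364). NPC1, which carries cholesterol out of lysosomes, had 588, 736 and 705 units with calactin, against 643, 972 and 781 units in untreated arrays. NPC1 arrays overlapped, and the log2 change was -0.22 (95% interval -0.57 to 0.13), or -0.13 without calactin replicate 1, -0.36 without untreated replicate 1 and -0.07 without untreated replicate 2. SOAT1, which esterifies cholesterol for storage, had 283, 302 and 303 units with calactin, against 288, 302 and 328 units in untreated arrays. The SOAT1 groups overlapped, with an interval of -0.29 to 0.20, and its change was 0.0052 without untreated replicate 3.

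In the LXR and export arm, MYLIP was the gene called by limma. MYLIP encodes a ubiquitin ligase, induced by LXR, that marks lipoprotein receptors for breakdown. It had 2366, 2092 and 2206 units with calactin, against 1446, 1247 and 1674 units in untreated arrays. All calactin arrays of MYLIP were above all untreated ones, and its rise was 1.53-fold (log2 change 0.61, SE 0.11, adjusted p = 0.00422 by limma). However, a dimmer probe set fell by 1.16 on the log2 scale, and the mean of the 6 MYLIP probe sets, at 0.24, was not called. With probe sets free of shared sequence put first, that dimmer probe set stood for MYLIP, which was then called lower (adjusted p = 0.00156 by limma). NR1H3, the gene of LXR alpha, had 193, 229 and 191 units with calactin, against 259.6, 244 and 252 units in untreated arrays. Its calactin arrays were lower without overlap, at a log2 change of -0.29 (95% interval -0.56 to -0.01, adjusted p = 0.146 by limma).

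The transporters were not called. ABCA1, which hands cholesterol to apolipoprotein A-I, had 10.6, 11.8 and 10.9 units with calactin, against 13.3, 13.0 and 24.2 units in untreated arrays. These signals were below the median of all genes, and the high value of untreated replicate 3 set much of the difference: the log2 change of ABCA1 was -0.26 with all arrays and -0.11 without that one (-0.51 with a pseudocount of 1 and -0.10 with 64). ABCG1, which loads cholesterol onto lipoprotein particles, had 105, 92.7 and 97.3 units with calactin, against 93.9, 67.9 and 88.2 units in untreated arrays. ABCG1 arrays overlapped, and the log2 change was 0.21 (95% interval -0.15 to 0.57), or 0.09 without untreated replicate 2. Of all 12 genes that were not called, 11 had a 95% interval within 1 of 0 on the log2 scale, and 6 within 0.5.

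Within 4 pairs of genes with like functions, the difference between the changes was tested by an exact permutation of the 6 arrays, two-sided, where 0.1 is the smallest p that 3 against 3 arrays allow. The log2 change of INSIG1 minus that of INSIG2 was -0.50 (exact p = 0.1, adjusted over the pairs 0.133). The change of SREBF2 minus that of SREBF1 was -0.27 (exact p = 0.1, adjusted 0.133). The ABCG1 change minus that of ABCA1, which is dim, was 0.47 (exact p = 0.1, adjusted 0.133), but 0.75 with a pseudocount of 1 and 0.25 with 64. For TM7SF2 minus LBR it was -0.31 (exact p = 0.6, adjusted 0.6). No pair could pass a threshold of 0.05 in this test, which does not use the replicate numbers.

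The array holds 68 probe sets for these genes, and each was also tested on its own among 54613 probe sets. Of the 68, 27 were called lower and 3 higher, beside 10.3% lower and 3.68% higher among all probe sets. All 3 probe sets of INSIG1 fell, with log2 changes of -1.80, -1.58 and -1.11, and both of NSDHL fell, with -1.72 and -1.32. Both probe sets of DHCR7 fell, at -0.86 and -1.03. For SQLE, 3 of 4 probe sets fell, at -1.66, -1.85 and -1.69, and a dim one that was not called stood at -0.79. For LSS, 2 of 3 fell, at -1.29 and -1.33, and for IDI1, 2 of 4, at -0.998 and -1.07. Their other probe sets, 1 of LSS and 2 of IDI1, were dimmer than these and not called. Their log2 changes were -0.22 for LSS and -0.33 and -0.41 for IDI1. MVK was divided: the brightest probe set was at -0.0026, whereas 2 dimmer ones fell, at -1.24 and -1.44. EBP was divided too, since its probe set at 0.26 was not called in this larger test (adjusted p = 0.0512 by limma) and another fell by 0.58. MYLIP was the gene with calls in both directions, with 3 probe sets higher at 0.61, 0.90 and 0.79 and 1 lower at -1.16. Which transcripts these probe sets measure was not tested.

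**Figure D3:**
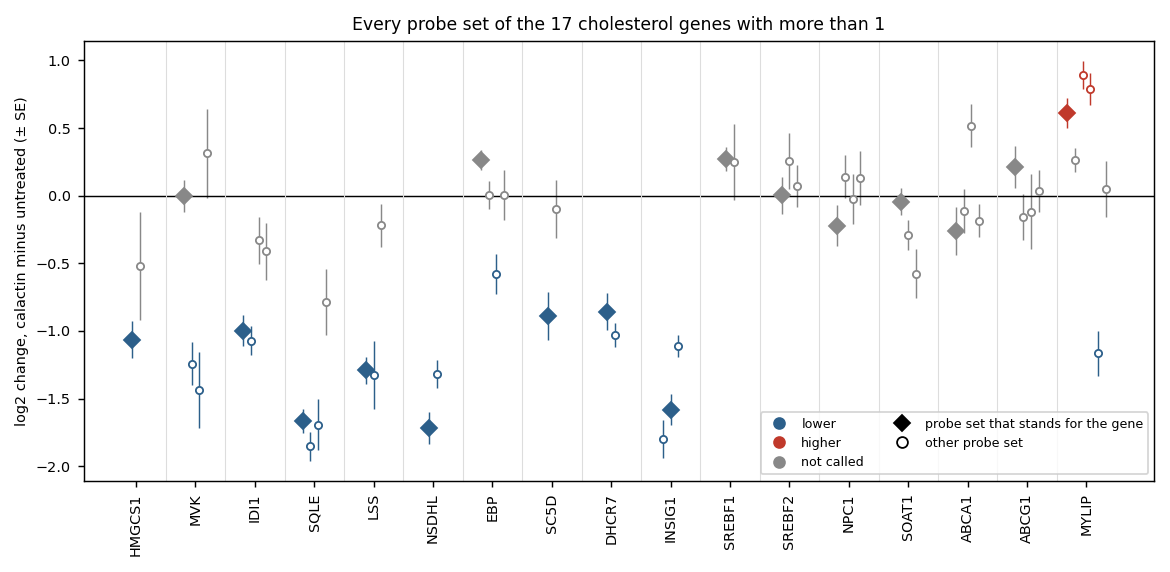
Log2 change (calactin minus untreated, with its SE) of every probe set of the 17 genes that have more than 1, adjusted over all probe sets, with diamonds for the probe set that stands for the gene. Probe sets of SQLE, INSIG1, NSDHL and DHCR7 lie together below 0, whereas those of MVK, EBP and MYLIP lie apart.

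The count of lower genes moved between 10 and 17 of 29 over the alternatives. The widest departure came from scaling to the poly-A spikes, control RNAs added to the sample, fitted together with the replicate block. That scaling raised the log2 changes of bright genes by 0.60 and put the median of all genes at 0.32, with 4.75% of all genes called lower and 32.3% higher. Under it, 10 cholesterol genes were lower and 10 higher, and their median was 0.08, which is 0.24 below the median of all genes; on the deposited scale the median was 0.44 below, or 0.27 below without untreated replicate 2. That array was the highest untreated one for 10 of the 15 genes that fell. Under poly-A spike scaling MSMO1, NSDHL, SQLE, INSIG1, LSS, STARD4, INSIG2, HMGCS1, IDI1 and SC5D kept their calls. Their log2 changes lay between -2.11 for MSMO1 and -0.30 for SC5D. The 10 higher genes under it were MYLIP, EBP, SREBF1, SCAP, ABCG1, SREBF2, MVK, SOAT1, PMVK and NPC1, with changes between 1.20 for MYLIP and 0.36 for NPC1. Which scaling fits these cells was not tested.

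**Figure D4:**
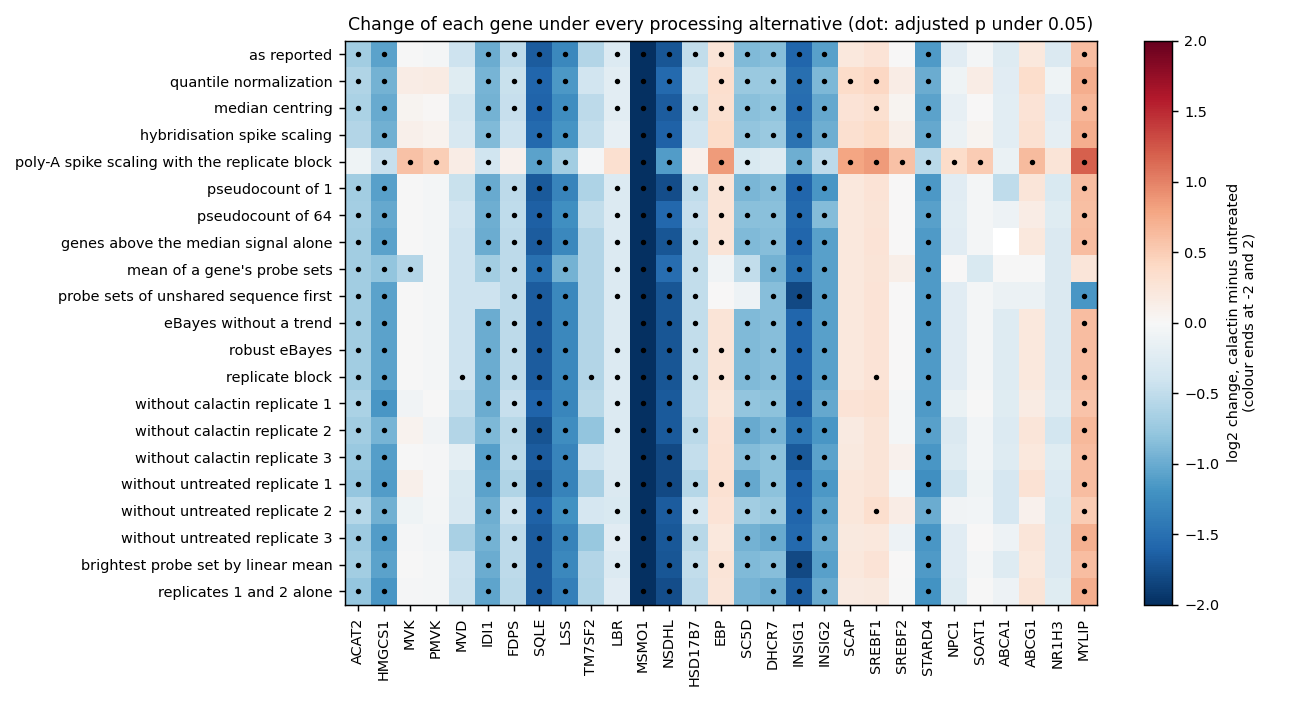
Log2 change (calactin minus untreated) of each gene, by colour, under the reported setting and each of 20 alternatives, with a dot where the adjusted p was under 0.05. Columns such as MSMO1, SQLE and INSIG1 carry a dot in every setting, and the poly-A scaling shifts all columns upward.

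Neighbouring pathways were counted with lists of related genes, to be read beside the 16.5% of all genes called lower and 4.93% called higher, or 29.3% and 9.1% among those above the median signal. Fatty acid synthesis, the other SREBP programme, had 9 of 16 measured genes lower and 0 higher by limma. The median log2 change of the list was -0.48. At an unadjusted p under 0.05 the counts were 10 and 0, beside 22.4% of all genes lower and 8.43% higher. ELOVL6, an elongase of saturated fatty acids, was at -1.74 on the log2 scale, ACSL4, which activates arachidonate, at -1.71, and ELOVL5, an elongase of polyunsaturated ones, at -0.50, all called lower. With probe sets free of shared sequence put first, ACSL4 was at -0.37 and not called, and ELOVL5 was not called under hybridisation spike scaling (-0.39), with averaged probe sets (-0.29) or under poly-A spike scaling (0.10). In the list for transport, cleavage and degradation in the SREBP system, 8 of 18 were lower and 3 higher, with a median of -0.16. SEC23A and SEC31A, coat proteins of the vesicles that carry SCAP to the Golgi, were called lower at -0.95 and -0.56, although SEC31A was not called under hybridisation spike scaling (-0.45) or poly-A spike scaling (0.04). RNF145, a sterol-responsive ubiquitin ligase, rose by 0.85.

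Of 20 other sterol transport, uptake and storage genes, 6 were lower, or 30.0%, and 1 higher, with a median of -0.27. SCARB1, the receptor for HDL, was at -1.11 on the log2 scale, GRAMD1A, which moves cholesterol from the plasma membrane, at -1.47, and NCEH1, a cholesteryl ester hydrolase, at -1.24, all called lower. With averaged probe sets SCARB1 was at -0.65 and GRAMD1A at -0.80. NCEH1 was dim, with means of 18.23 units in calactin arrays and 65.1 units in untreated arrays. Its change was -1.78 with a pseudocount of 1 and -0.65 with 64. The isoprenoid branch, which leaves the route at farnesyl diphosphate, had 4 of 16 lower, or 25.0%, and 4 higher, with a median of -0.11. DOLPP1, of dolichol recycling, rose by 1.26, and ICMT, which methylates prenylated proteins, rose by 0.71 but stood at -0.25 with probe sets free of shared sequence put first. PDSS1, which builds the tail of coenzyme Q, fell by 0.65, but it was not called under hybridisation spike scaling (-0.54), under poly-A spike scaling (-0.06) or with probe sets free of shared sequence put first (-0.40). Among LXR partners and other LXR targets, 2 of 13 were lower, or 15.4%, and 3 higher, with a median of 0.004. NCOA2, a receptor coactivator, fell by 1.31, while its relative NCOA1 and the LXR partner RXRA rose by 0.85 and 0.90. With the mean of their probe sets, NCOA2 at -0.42 and RXRA at 0.30 were not called, and neither NCOA1 nor RXRA was called in replicates 1 and 2 alone (adjusted p = 0.0741 and 0.0628 by limma).

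Among accessories of the sterol enzymes, 4 of 10 were lower and 1 higher, with a median of -0.21. FAXDC2, which resembles MSMO1 in its hydroxylase domain, rose by 1.31. FAXDC2 was not called without untreated replicate 3 (1.15, adjusted p = 0.0503 by limma) or in replicates 1 and 2 alone (1.23, adjusted p = 0.118 by limma). DHRS7 fell by 0.63, though its call held in 15 of 20 alternatives: it stood at 0.10 with probe sets free of shared sequence put first and was not called without untreated replicate 3 (-0.55). The call of ACAT1 held in 12. ACAT1, the mitochondrial relative of ACAT2, fell by 0.30, though it stood at 0.29 under poly-A spike scaling and was not called without calactin replicate 1 (-0.27), calactin replicate 2 (-0.29) or untreated replicate 3 (-0.29). None of these differences between lists was tested.

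**Figure D5:**
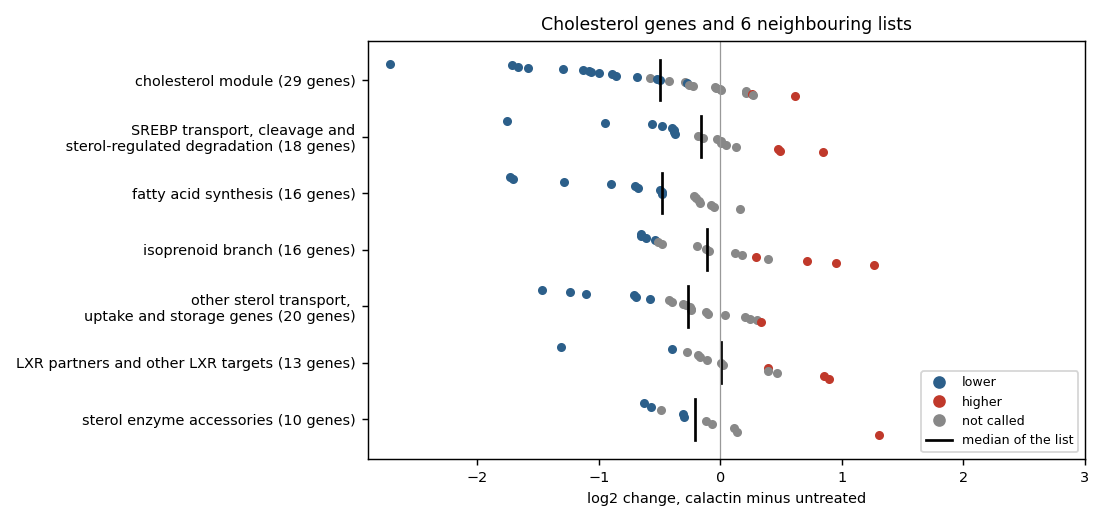
Log2 change (calactin minus untreated) of each measured gene in the cholesterol set and in 6 neighbouring lists, with the median of each list as a bar, from 3 calactin and 3 untreated arrays. The medians of the cholesterol genes at -0.50 and of fatty acid synthesis at -0.48 lie lowest, and the LXR list is centred at 0.004.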

How the data were processed

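The authors deposited a linear intensity for every probe set on every array. How probes were summarised, corrected for background or scaled is not stated in the labels or the table. The labels' protocols name Trizol extraction and biotin-labelled cRNA. Of 54675 probe sets, 62 controls were set aside, and 41091 carry 1 gene symbol in the platform annotation, 1801 several and 11721 none. Only probe sets with 1 symbol were used. The probe set with the highest mean log2 signal stood for its gene; a first run had used the linear mean, kept as an alternative.

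Intensities were turned into log2(intensity + 16) with no further normalization. limma 3.58.1 (lmFit, eBayes with a trend) in R 4.3.3 tested 3 calactin against 3 untreated arrays (two-sided) with Benjamini-Hochberg adjustment over 19775 genes and a threshold of 0.05; the fit was tested on simulated data. Pair tests were run in python 3.11.15 and plots used matplotlib 3.10.9. Precision is limited by the 3 arrays per group. The planned pair NR1H2 and NR1H3 could not be run. Promoter stretches around CCAAT were chosen for printing after the motif counts were seen.

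Genes named were all members and, from each neighbouring list, the 3 with the smallest p. The members and lists were chosen with earlier results of these data known. Replicate numbers come from the sample titles. Over 9887 genes above the median signal, deviations of same-numbered arrays correlated at 0.544, 0.409 and 0.345. The highest value with another number was -0.00837. Deviations were taken from the mean of each group, which pushes these other values below 0 when same-numbered arrays correlate. The negative value is therefore not separate evidence. From the positive correlations of same-numbered arrays, the numbers were taken to pair the arrays. The reported calls came from a fit without this pairing. With the replicate block, which uses it, 17 cholesterol genes were lower and 3 higher. Alternatives were quantile normalization, median centring, scaling to hybridisation or poly-A spikes (the second with the replicate block), pseudocounts of 1 and 64, a fit to brighter genes only (above the median signal), averaging all probe sets of a gene, probe sets free of shared sequence put first, robust eBayes, eBayes with no trend, the replicate block, each array left out in turn and, added after seeing the data, replicates 1 and 2 alone, because the poly-A spikes of replicate 3 were low in both groups.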

Additional observations from a re-analysis of the deposited data

How the results depend on the processing

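The number of cholesterol genes called lower was 15, and 10 to 17 under the 20 alternatives; the lowest counts were 10 under poly-A spike scaling with the replicate block and 11 under hybridisation spike scaling and in replicates 1 and 2 alone. The number called higher, 2, was 4 under quantile normalization, 10 under poly-A spike scaling, 1 under hybridisation spike scaling, without a variance trend and in replicates 1 and 2 alone, 0 with averaged probe sets or with probe sets free of shared sequence put first, and 1 to 2 with each array left out. The replicate block alone gave 17 lower and 3 higher, adding MVD, TM7SF2 and SREBF1, and changed no other call of a cholesterol gene. Under poly-A spike scaling the median log2 change was 0.079, and changes turned to 0.58 for MVK, 0.49 for PMVK, 0.15 for MVD, 0.079 for FDPS, 0.32 for LBR, 0.090 for HSD17B7, 0.36 for NPC1, 0.25 for NR1H3, 0.50 for SOAT1, 0.036 for SEC31A, 0.10 for ELOVL5 and 0.29 for ACAT1. Under quantile normalization MVK was at 0.14, PMVK at 0.16 and SOAT1 at 0.15, under median centring at 0.054, 0.017 and 0.012, and under hybridisation spike scaling at 0.11, 0.064 and 0.061. With averaged probe sets EBP was at -0.075, NPC1 at 0.0059 and ABCG1 at -0.0081; with unshared sequence first ABCG1 was at -0.12, MYLIP at -1.16, ICMT at -0.25 and DHRS7 at 0.10. With each array left out, MVK ranged from -0.080 to 0.094, SREBF2 from -0.10 to 0.14 and SOAT1 from -0.086 to 0.0052, and in replicates 1 and 2 alone SREBF2 was at -0.015. The cause was not tested. Quantile normalization called 2401 genes lower and 1659 higher, against 3264 and 975, so 59.1% of calls were lower in place of 77.0%; the poly-A scaling gave 939 lower and 6382 higher (12.8% lower), and hybridisation scaling 1501 and 630. Signal over background limits ABCA1 most, the sole cholesterol gene below the median signal.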
